A study of Mus musculus with 55 samples.

Results

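The 9 genes described here are the FSH receptor gene Fshr and 8 other genes known as markers of ovarian granulosa cells, namely Cyp19a1, Nr5a2, Amh, Inha, Inhbb, Fst, Foxl2 and Has2. They were picked by symbol from the 33924 genes of the study's first count table, and all 9 were found there. The choice was made with results of these libraries known, so the members' values in the growing oocyte contrast, and the level of Fshr in the second Dhx36 experiment, are a description with no p-value, and nothing is read from their calls.

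Granulosa cells surround the oocyte in the ovarian follicle. They carry the FSH receptor, a G protein-coupled receptor of the cell surface that raises cAMP when pituitary FSH binds, and this drives aromatase expression, estradiol synthesis and follicle growth. The oocyte itself is known for zona pellucida proteins and secreted growth factors such as GDF9 and BMP15, and is not the cell in which these genes are usually studied.

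Polyadenylated RNA was counted per gene in mouse oocytes, with the ovary named as the source. DHX36 (also called RHAU) is a DEAH-box helicase that unwinds G-quadruplexes in RNA and DNA. In the first experiment 3 libraries named control were set against 3 named Dhx36_sko, from growing oocytes of control and Dhx36fl/fl;SKO mice. The second held the groups c, c-DRB, rhau-sko and rhau-sko-DRB, in which DRB is an inhibitor of the kinase CDK9 and of transcription elongation. The third compared GV-C with GV-cPDS-12h, 3 libraries each, GV being the usual short form of germinal vesicle and cPDS (carboxypyridostatin) a ligand of RNA G-quadruplexes. A separate table held 3 Dhx36-3h-control and 3 Dhx36-3h-Trim21 libraries, named for TRIM21, the ubiquitin ligase used to degrade antibody-bound proteins. The labels attach the wording on growing oocytes to every sample, the GV libraries included. They spell out neither SKO nor the Cre driver of the floxed allele, and they give no ages, no time or dose for DRB, and no number of animals or oocytes per library. Nothing says that replicates came from separate animals, so p-values measure only the spread between these libraries.

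Libraries c-DRB 4 and rhau-sko 6 held 129192 and 127927 counts and were left out by the rule, which leaves 24 libraries. The 6 growing libraries held 31930695 to 41075545 counts, the 6 deep libraries of the second experiment 23010562 to 40968105, the 6 GV libraries 26509060 to 65444652, and the Trim21 experiment's 6 libraries 7452742 to 32704737. Levels are CPM, read counts relative to library size, after TMM scaling within each comparison (normalised CPM). Dhx36 itself was 8.77 ± 1.89 CPM in growing controls and 2.17 ± 0.582 in the sko libraries (SD, n = 3 each). In the second experiment it was 42.7 ± 4.57 in the c libraries and 5.95 ± 1.65 in the sko libraries (SD, n = 3 each), and with Trim21 it went from 30.5 ± 1.33 to 7.72 ± 1.33 (SD, n = 3 each). In each of these 3 comparisons no treated library reached the lowest control. With cPDS Dhx36 was instead higher, at 21.5 ± 1.30 CPM in GV-C and 35.5 ± 3.72 after treatment (SD, n = 3 each). Why Dhx36 RNA was lower with Trim21, a treatment directed at protein, was not tested. The 14 oocyte markers of the gene lists (Zp3, Gdf9, Bmp15 and others) summed to 8910 to 41722 CPM per library across all 24, against 15.4 to 143 CPM for the 9 granulosa genes, so markers of the labelled cell type dominated.

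The sequence upstream of Fshr is shown because it is the member whose level moved furthest, with those of Cyp19a1, which passed the test in the second sko, cPDS and Trim21 comparisons. The 250 bases before each start site come from RefSeq on GRCm38.p6, whereas the count files use mm9, so these positions are not those of the count files. The table held windows for 6 of the 9 genes (9 windows, 3 of them for alternative Cyp19a1 starts). Capitals mark the E-box CACGTG, which USF and other bHLH factors bind, the sequence AAGGTCA recognised by NR5A receptors, and the run GGGG, each searched on both strands (CCCC in the printed strand stands for GGGG on the other).
Fshr, chr17:89200676-89200925, minus strand: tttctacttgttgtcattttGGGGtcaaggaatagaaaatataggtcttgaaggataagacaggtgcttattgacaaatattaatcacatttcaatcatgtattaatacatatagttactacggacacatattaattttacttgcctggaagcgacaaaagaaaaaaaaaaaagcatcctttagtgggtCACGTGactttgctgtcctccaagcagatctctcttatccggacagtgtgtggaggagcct
Cyp19a1, chr9:54268165-54268414, minus strand: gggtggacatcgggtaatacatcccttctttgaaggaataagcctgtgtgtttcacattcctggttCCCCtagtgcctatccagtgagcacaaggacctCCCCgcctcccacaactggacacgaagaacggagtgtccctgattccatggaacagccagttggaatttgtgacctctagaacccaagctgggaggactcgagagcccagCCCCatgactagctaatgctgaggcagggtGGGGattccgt
Cyp19a1, chr9:54228915-54229164, minus strand: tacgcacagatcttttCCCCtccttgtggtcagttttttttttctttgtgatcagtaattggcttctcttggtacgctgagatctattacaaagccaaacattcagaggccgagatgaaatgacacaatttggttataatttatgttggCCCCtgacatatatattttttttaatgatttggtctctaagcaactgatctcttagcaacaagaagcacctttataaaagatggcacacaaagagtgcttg
Cyp19a1, chr9:54193744-54193993, minus strand: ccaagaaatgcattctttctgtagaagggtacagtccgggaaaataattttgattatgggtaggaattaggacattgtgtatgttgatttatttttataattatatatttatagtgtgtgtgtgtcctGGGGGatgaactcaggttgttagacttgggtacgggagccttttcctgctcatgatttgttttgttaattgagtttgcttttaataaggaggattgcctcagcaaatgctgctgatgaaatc

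The Fshr window held 1 E-box, from 61 to 56 bases before the start, and 1 GGGG run. No E-box occurred in the other 8 windows, which belong to Cyp19a1, Inha, Inhbb, Nr5a2 and Foxl2, and AAGGTCA occurred in none of the 9. Among all 32851 windows of the same length, 6.02% held the E-box, 4.08% held AAGGTCA and 83.1% held GGGG. The GGGG counts of the 9 windows ran from 0 in 1 of the 2 Nr5a2 windows to 19 in Inhbb, with overlapping matches counted. These matches are a description of the letters and not of binding. In the count files, on mm9, Fshr spans chr17:89384292-89600015 on the minus strand with 2360 bases of exons, and no other gene of the table shares the exons of any member.

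Fshr was low in every control group. Its normalised CPM in the growing controls was 0.443, 0.300 and 0.283, from 16, 9 and 9 counts, and in the growing sko libraries 35.1, 38.1 and 38.0, from 1314, 1466 and 1449 counts. The groups were 0.342 ± 0.0881 and 37.1 ± 1.73 CPM (SD, n = 3 each), a 106-fold difference (log2 fold change 6.73 ± 0.21 SE), and the spread within each group was small beside the gap. By size of increase Fshr ranked 56 of the 14081 genes tested. In the 6 deep libraries of the second experiment it was 2.68 and 0.295 CPM in c, 1.06 in c-DRB, 31.2 in rhau-sko, and 15.9 and 23.5 in rhau-sko-DRB. The lowest sko library there lay above the highest c library, and the 3 c libraries differed among themselves by more than the 3 sko libraries did in proportion. The fitted log2 fold change, with DRB in the model, was 4.32 ± 0.55 (SE).

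**Figure D1:**
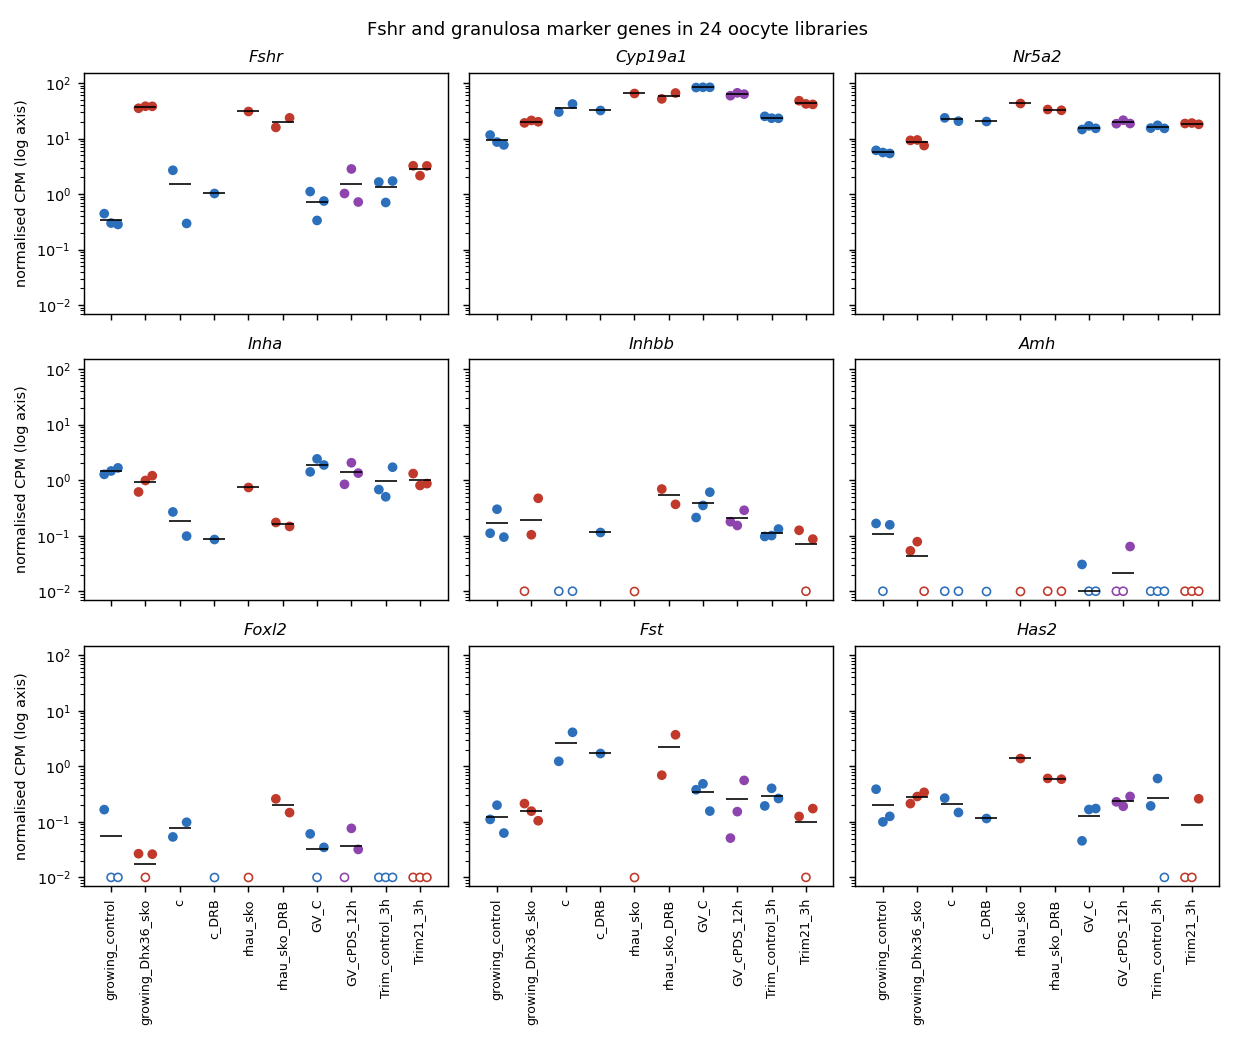
Normalised CPM (log axis) of each of the 9 genes in 24 libraries, one panel per gene, with a point per library, a black line at the group mean and open symbols at the bottom for libraries with 0 counts. Blue marks control libraries (c-DRB included), red the Dhx36 sko and Trim21 libraries and purple cPDS. Fshr sits near 0.3 in growing controls and above 35 in growing sko, while Cyp19a1 moves from 9.28 to 20.1 and Amh has at most 6 counts in a library.

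Cyp19a1 encodes aromatase, the enzyme that turns androgens into estrogens and the classic product of FSH action. In growing oocytes it was 11.6, 8.63 and 7.67 CPM in the controls and 19.1, 21.2 and 20.1 in the sko libraries, without overlap, so it was higher in sko but far less so than Fshr (2.16-fold, log2 fold change 1.11 ± 0.17 SE). Nr5a2, the nuclear receptor LRH-1 that acts on steroid enzyme genes in granulosa cells, was 6.12, 5.60 and 5.38 in the controls and 9.26, 9.42 and 7.47 in sko, a 1.53-fold difference that also left no overlap (log2 fold change 0.61 ± 0.18 SE).

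In a contrast where 32.2% of all genes tested lay higher without overlap and 28.6% lower, these shares are the background. Inha, the alpha subunit of inhibin that restrains pituitary FSH, went the other way in growing oocytes. Its controls were 1.27, 1.47 and 1.67 CPM and the sko libraries 0.614, 0.989 and 1.21 CPM, lower without overlap, and the log2 fold change was -0.65 ± 0.37 (SE). Has2, the hyaluronan synthase of cumulus expansion, overlapped between groups at 0.0999 to 0.388 CPM in controls and 0.214 to 0.341 in sko. The other 4 genes were too low for the count filter (a minimum count of 10, as edgeR's filterByExpr applies it): AMH, the anti-Mullerian hormone of small follicles, had 11 counts over the 3 controls and 5 over the 3 sko libraries. Foxl2, the transcription factor that keeps granulosa identity, had 6 and 2. Inhbb, the inhibin and activin beta B subunit, had 16 and 22, and Fst, the activin-binding protein follistatin, had 12 and 18.

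As a description, 3 of the 5 members that passed the count filter in growing oocytes (Fshr, Cyp19a1, Nr5a2) lay past the threshold, higher in sko, in a contrast that called 53.7% of all genes tested (28.5% higher and 25.2% lower, edgeR quasi-likelihood with Benjamini-Hochberg adjustment at 0.05). Nothing is read from that count, since the choice of genes used this contrast. Fshr passed the filter through the sko libraries only, so its presence among the tested genes depends on its rise. Scaling by library size in place of TMM shifted the median log2 fold change over genes to 0.21 from 0.02, and the calls split into 4825 higher and 2386 lower instead of 4017 and 3549. The log2 fold change of Fshr was then 6.92, of Cyp19a1 1.31 and of Inha -0.46, so none of these directions flipped.

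In the second experiment the groups c and c-DRB (3 libraries) were set against rhau-sko and rhau-sko-DRB (3 libraries) with DRB as a covariate, the 2 shallow libraries left out. Cyp19a1 rose from 34.7 ± 6.38 to 61.2 ± 8.20 CPM (SD, n = 3 each), with c libraries at 30.0, 41.9 and 32.1 and sko libraries at 65.8, 51.7 and 66.1 (log2 fold change 0.87 ± 0.16 SE, edgeR adjusted p = 0.0019). Nr5a2 rose from 21.7 ± 1.64 to 36.5 ± 6.52 CPM (SD, n = 3 each), with c libraries at 23.6, 20.5 and 21.0 and sko libraries at 44.0, 33.3 and 32.2 (0.82 ± 0.15 SE, edgeR adjusted p = 0.0014). Neither gene overlapped between groups, as was so, in the same direction, for 24.7% of all genes. Has2 was 0.268, 0.148 and 0.117 CPM in the c libraries and 1.40, 0.607 and 0.588 in the sko libraries (log2 fold change 2.56 ± 0.68 SE, edgeR adjusted p = 0.0130), from 20 counts in all c libraries and 74 in all sko libraries. The c libraries, with 10, 6 and 4 counts, each lay below the level of the count filter. Has2 was thus tested only through the sko libraries, where it was higher, and nothing is read from its call. The Has2 call was lost without c replicate 2, c-DRB replicate 3 or rhau-sko replicate 5, with adjusted p of 0.0658, 0.0523 and 0.191 (edgeR).

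Besides Fshr, whose level here is described only, 4 members were tested in this comparison. Of these 3 were called higher, Has2 with the filter limit given above, in a contrast where 37.8% of all genes were called (19.9% higher, 17.9% lower). Fst did not pass: its libraries ranged from 1.23 to 4.11 CPM in c and from 0 to 3.71 in sko, rhau-sko replicate 5 being at 0. Without that library its log2 fold change turned from -1.90 to 0.33. It was called lower without the filter on low counts, without c-DRB replicate 3 (log2 fold change -9.42) and without rhau-sko-DRB replicate 8 (-3.26), with edgeR adjusted p of 0.0113, 0.0210 and 0.0483. Amh was at 0 counts in all 6 libraries, Inha had 17 counts in c and 32 in sko, Inhbb 4 and 26, and Foxl2 6 and 10, none of them enough for the test.

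DRB had no called member in the same 6 libraries. None of the 5 members tested passed, and 0.0126% of all genes did, 2 of 15923 by edgeR, against 2071 at an unadjusted p under 0.05 and 403 by DESeq2. The interval of the difference for Fshr was wide, with a log2 fold change of -0.59 ± 0.52 (SE) and a 95% interval of -2.23 to 1.05 (edgeR adjusted p = 0.669), and a change within it was not detectable at this spread. For Cyp19a1 it was -0.16 (95% interval -0.68 to 0.36) and for Nr5a2 -0.25 (-0.71 to 0.21). Inhbb had 0 counts in the 3 libraries without DRB and 30 in the 3 with it, too few for the test; 5.36% of the genes tested lay higher with DRB in every library.

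**Figure D2:**
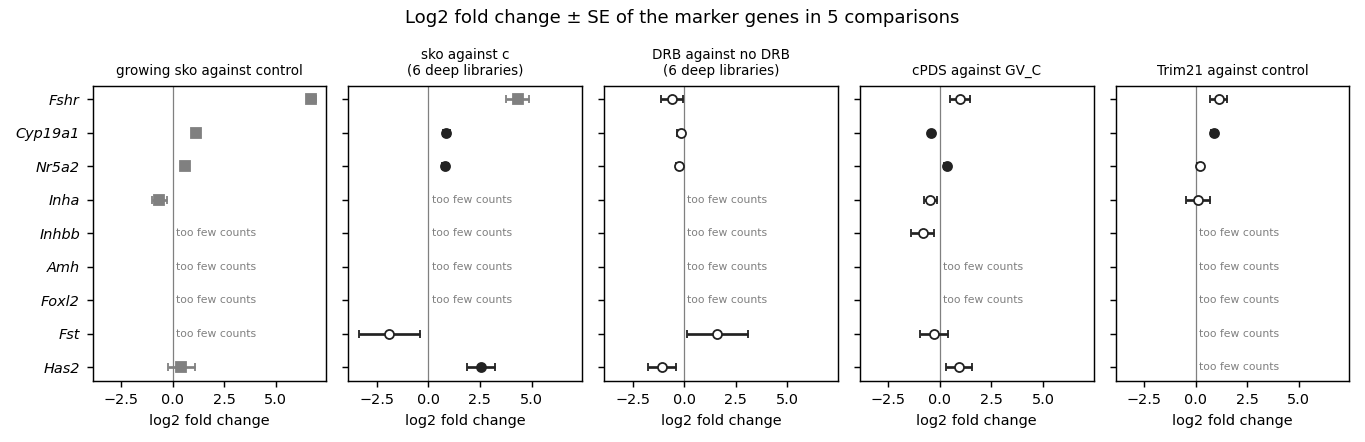
Log2 fold change ± SE of each gene in the 5 comparisons, 1 panel each, with filled circles for an adjusted p under 0.05 by edgeR and open circles for genes tested but not called. Grey squares are values given as a description only (all of the growing panel, and Fshr in the second panel), and the words "too few counts" stand where a gene missed the count filter. Fshr lies at 6.73 and 4.32 in the sko panels, above every other gene, and at 0.99 and 1.11, not called, in the cPDS and Trim21 panels. Has2 is next in the second panel at 2.56 ± 0.68, where it was tested through the sko libraries only.

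In the GV oocytes Cyp19a1 fell and Nr5a2 rose with cPDS, and Fshr did not pass the test. Cyp19a1 was 82.9, 83.7 and 83.7 CPM in GV-C and 59.0, 66.6 and 63.0 in GV-cPDS-12h, and fell (log2 fold change -0.41 ± 0.07 SE, edgeR adjusted p = 2.44e-04). Nr5a2 was 14.5, 16.9 and 15.3 in GV-C and 18.5, 21.4 and 18.6 with cPDS, and rose (0.32 ± 0.11 SE, edgeR adjusted p = 0.0190). The Nr5a2 call was lost without GV-C replicate 1, GV-C replicate 3 or cPDS replicate 2 (edgeR adjusted p = 0.0757, 0.0711 and 0.0837). Fshr was 1.11, 0.334 and 0.747 CPM in GV-C and 1.02, 2.83 and 0.718 with cPDS, overlapping, with a log2 fold change of 0.99 ± 0.49 (SE, edgeR adjusted p = 0.110). It passed without GV-C replicate 1 or cPDS replicate 3 and without the filter on low counts (edgeR adjusted p = 0.0494, 0.0358 and 0.0107), so its side of the threshold depended on these choices.

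Of the 7 members tested with cPDS 1 was higher and 1 lower, in a contrast that called 50.8% of all genes (23.4% higher, 27.4% lower). Inha had a log2 fold change of -0.46 (95% interval -1.32 to 0.41), Inhbb of -0.84 (-2.36 to 0.68), Fst of -0.29 (-2.15 to 1.58) and Has2 of 0.91 (-0.84 to 2.66), none of them past the threshold. Amh had 2 counts in GV-C and 4 with cPDS, and Foxl2 6 and 4. Cyp19a1 was lower, and Nr5a2 and Has2 higher, without overlap, as were 30.7% and 27.4% of all genes. Has2 had 3, 10 and 10 counts in GV-C and 9, 5 and 18 with cPDS. It could not pass the count filter on GV-C alone. Has2 was thus tested through the cPDS libraries, where it was higher, and nothing is read from its place here.

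After 3 h of the Trim21 treatment Cyp19a1 was again higher. It was 25.1, 23.2 and 23.1 CPM in the controls and 48.0, 42.0 and 41.2 with Trim21, and rose (log2 fold change 0.88 ± 0.13 SE, edgeR adjusted p = 0.00119). Fshr was 1.65, 0.704 and 1.71 CPM in the controls and 3.23, 2.14 and 3.21 with Trim21, which left no overlap but did not pass (log2 fold change 1.11 ± 0.40 SE, edgeR adjusted p = 0.0997, 95% interval 0.0043 to 2.23). Nr5a2 was 15.4, 17.3 and 15.2 in the controls and 18.6, 19.0 and 18.02 with Trim21, also without overlap (0.21 ± 0.15 SE, edgeR adjusted p = 0.430). Of 4 members tested 1 was called higher, where 11.5% of all genes were called (6.26% higher, 5.23% lower). Inha was 0.965 ± 0.654 and 0.996 ± 0.279 CPM (SD, n = 3 each), and Amh and Foxl2 had 0 counts in all 6 libraries. Inhbb had 6 counts in each group, Has2 16 in the controls and 6 with Trim21, and Fst 16 and 8. Fst lay lower without overlap, and Fshr, Cyp19a1 and Nr5a2 higher, where 14.9% and 15.2% of all genes did so.

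The ratio of Fshr to Cyp19a1, per base of exon, shows how far the receptor and aromatase moved together. It was 0.0355 to 0.0392 in growing controls and 1.84 to 1.94 in growing sko. In the second experiment it was 0.0072 to 0.0914 in c, 0.0337 in c-DRB, 0.486 in rhau-sko, and 0.314 to 0.364 in rhau-sko-DRB, so the sko libraries again lay above the c libraries. With cPDS the ratio was 0.0041 to 0.0137 in GV-C and 0.0117 to 0.0435 after treatment (log2 difference 1.38, exact permutation p = 0.20, 2-sided), and with Trim21 it was 0.0310 to 0.0758 and 0.0521 to 0.0798 (log2 difference 0.29, exact permutation p = 0.60, 2-sided). The smallest p that 3 against 3 allows is 0.10, and over these 2 tests the Benjamini-Hochberg values were 0.40 and 0.60. Fshr made up 2.00% to 2.42% of the summed per-length level of the 9 genes in growing controls and 57.2% to 58.7% in growing sko, and 25.1% in rhau-sko.

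In level per length Cyp19a1 was the highest of the 9 genes in each group except growing sko, where Fshr led at 15.7 CPM per kb against 8.33 for Cyp19a1. Growing controls had Cyp19a1 at 3.85 CPM per kb, Nr5a2 at 1.49, Inha at 0.996 and Fshr at 0.145. Amh was at 0 in 18 of the 24 libraries and Foxl2 in 13, and their highest counts were 6 and 6. Fshr, Cyp19a1, Nr5a2 and Inha had at least 1 count in all 24.

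Further granulosa and cumulus markers, 20 in all, moved in both directions. In growing oocytes 11 were tested, 4 rose and 2 fell, and their median log2 fold change was 0.53 against 0.02 for all genes tested. The median of the list had the other sign in the second experiment (-0.41, against -0.01 for all genes) and with cPDS (-0.39, against 0.01). With Trim21 it was 0.11, against -0.01. For this and the lists that follow, the shares over all genes tested were 28.5% higher and 25.2% lower in growing oocytes, 19.9% and 17.9% in the second experiment, 23.4% and 27.4% with cPDS, and 6.26% and 5.23% with Trim21. Grb14, an adaptor that restrains insulin receptor signalling, rose from 0.804 ± 0.453 to 15.4 ± 3.22 CPM (SD, n = 3 each, log2 fold change 4.28 ± 0.31 SE). Ptgs2, the prostaglandin synthase of ovulation, rose by 2.15 ± 0.51 (SE), Pfkp, a glycolytic phosphofructokinase, fell by 1.38 ± 0.20 and Esr2, estrogen receptor beta, fell by 0.36 ± 0.12. The second experiment tested 12, of which 1 rose (Grb14, 4.57 ± 0.40) and 2 fell (Pfkp by 0.76 ± 0.26, Esr2 by 0.52 ± 0.11). With cPDS 1 of 14 rose (Kitl) and 7 fell, and with Trim21 1 of 7 rose (Esr2, 0.45 ± 0.10) and 1 fell (Pfkp).

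Markers of other ovarian and blood-borne cells were low. The 15 theca and stroma genes summed to 23.8 to 31.2 CPM in growing controls and 17.98 to 23.0 in sko, with 2 of 5 tested higher (Cyp17a1, Dcn) and 1 lower (Myh11), and Insl3 and Tcf21 at 0 in both groups. Cyp17a1 passed the count filter through the sko libraries only. The 12 immune, endothelial and blood genes summed to 18.1 to 19.0 CPM and 19.5 to 21.4, with 2 of 5 tested higher and 2 lower, and Emr1 at 0 in both groups. For the second experiment the sums were 46.9 to 58.4 in c and 33.1 to 48.4 in sko for theca and stroma, with 1 of 5 higher and 1 lower, and 60.0 to 65.5 and 40.0 to 51.4 for the other list, with 1 of 6 higher and 3 lower. Ptprc, the common leukocyte antigen CD45, had 0 counts in growing controls and 171 in growing sko, and 5 and 302 in the second experiment. It could not pass the count filter on the control or c libraries, so nothing is read from its rise. Ptprc is 1 gene of its list, in which 2 genes were called lower in growing oocytes and 3 in the second experiment. The median log2 fold change of that list was -0.59 and -0.72 in these comparisons, against 0.02 and -0.01 for all genes tested. The part of other cell types in the level of Fshr was not tested, and in such pooled RNA fewer cells of a type cannot be told apart from less RNA per cell. The 20 granulosa markers summed to 1023 to 1220 CPM in growing controls and 1274 to 1424 in sko, most of it from Serpine2, a protease inhibitor (975.1 ± 106 and 1238 ± 75.5 CPM, SD, n = 3 each).

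**Figure D3:**
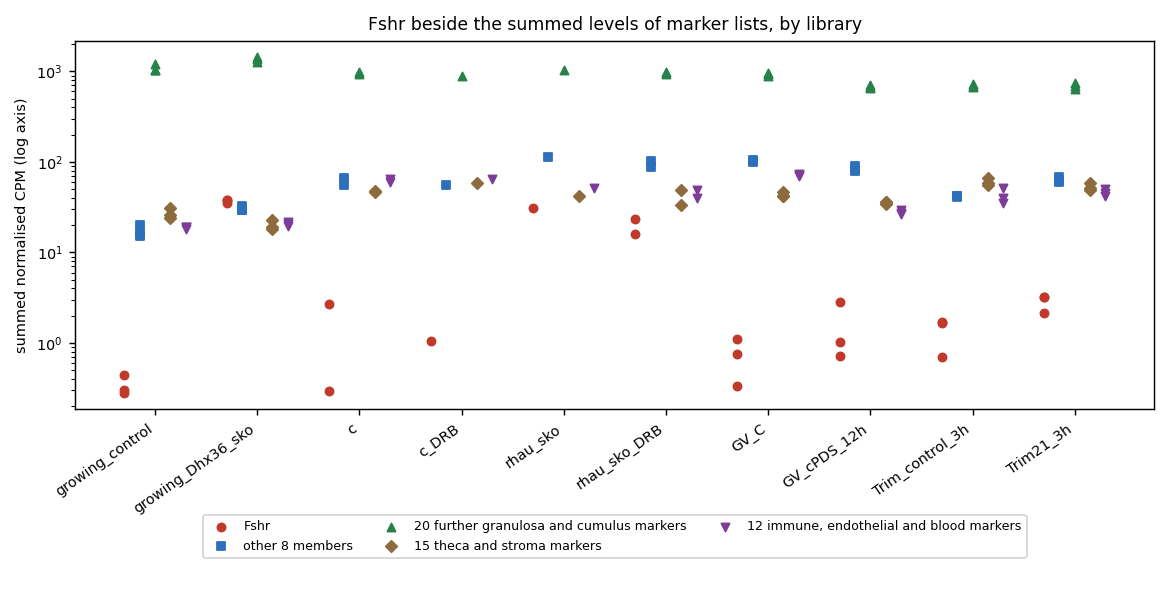
Normalised CPM of Fshr, and summed normalised CPM of the other 8 members and of 3 marker lists, by library on a log axis, with a point per library and groups along the horizontal axis. In growing sko Fshr reaches 35.1 to 38.1 while the theca and stroma sum stays at 17.98 to 23.0 and the granulosa list at 1274 to 1424.

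The genes that carry the FSH signal onward were tested from a list of 24. In growing oocytes 3 of 19 rose and 6 fell (28.5% and 25.2% of all genes). Those that rose included Sgk1, a kinase that FSH raises in granulosa cells (6.11 ± 0.744 to 21.1 ± 1.17 CPM, SD, n = 3 each, log2 fold change 1.79 ± 0.16 SE), and Crem, a cAMP-responsive transcription factor (0.84 ± 0.28), while Gipc1 (by 1.44 ± 0.50) and Fshb, the hormone's own beta subunit (by 0.98 ± 0.33), fell. Of 20 tested in the second experiment 3 rose and 2 fell, with the adaptor Irs1 highest (3.41 ± 0.91) and the kinase Akt1 lowest (-0.81 ± 0.27). With cPDS 4 of 22 rose and 6 fell, with Akt1 at 15.3 ± 0.912 and 3.50 ± 0.114 CPM (SD, n = 3 each), and with Trim21 none of the 19 tested passed.

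The activin, inhibin, AMH and BMP list had 3 of 16 higher and 5 lower in growing oocytes, and 4 of 19 higher and 1 lower in the second experiment. Tgfbr3, a co-receptor for inhibin, rose in both, from 57.6 ± 12.9 to 182 ± 21.9 CPM and from 33.6 ± 1.70 to 99.7 ± 38.5 (SD, n = 3 each). Smad3, which carries activin signals, fell in both (by 1.12 ± 0.17 and by 0.72 ± 0.15). With cPDS 6 of 19 rose and 3 fell, Inhba, the beta A subunit, falling by 1.48 ± 0.52, and with Trim21 1 of 17 rose (Bambi, a decoy receptor, 1.71 ± 0.49).

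Steroid synthesis and receptor genes showed 5 of 13 higher and 2 lower in growing oocytes, 2 of 13 higher and 4 lower in the second experiment, none of 14 higher and 5 lower with cPDS, and 2 of 11 higher with Trim21. Cyp17a1, the theca enzyme that makes androgens, had 7 counts in growing controls and 75 in sko (3.13 ± 0.71), and Nr5a1, the steroidogenic factor SF-1, 10 and 74 (2.64 ± 0.73). Neither gene could pass the count filter on its controls. Both were tested through the sko libraries, where they were higher, and nothing is read from their calls. The electron donor Por fell in both sko experiments (by 0.96 ± 0.20 and by 0.91 ± 0.25). In the hyaluronan and cumulus matrix list, the family of Has2, 4 of 7 rose and 1 fell in growing oocytes and none rose and 2 of 10 fell in the second, Has3, a sister synthase, falling in both (by 1.74 ± 0.36 and by 2.12 ± 0.26). With cPDS 2 of 8 rose and 2 fell, and with Trim21 none of 4 passed.

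Among 19 transcription factors of granulosa cells and of Fshr, 4 of 13 rose and 6 fell in growing oocytes (28.5% and 25.2% of all genes), 2 of 14 rose and 7 fell in the second experiment (19.9% and 17.9%), 2 of 13 rose and 3 fell with cPDS, and 1 of 13 rose and 2 fell with Trim21. Zfpm2 (FOG2), a cofactor of GATA4, rose from 0.626 ± 0.267 to 16.9 ± 3.78 CPM in growing oocytes and from 1.32 ± 0.393 to 91.3 ± 20.02 in the second experiment (SD, n = 3 each). Gata4 itself fell in both, from 10.6 ± 1.70 to 2.22 ± 0.800 and from 7.15 ± 1.04 to 1.93 ± 0.194 (SD, n = 3 each). Usf1, which binds E-boxes of the CACGTG kind, had 11.95 ± 1.55 and 14.0 ± 0.746 CPM in growing controls and sko, and fell from 15.9 ± 1.44 to 1.29 ± 0.0584 with cPDS (SD, n = 3 each, log2 fold change -3.61 ± 0.15 SE). Oocyte markers showed 2 of 14 higher and 6 lower in growing sko, and 1 of 14 higher and 10 lower in the second experiment, with Zar1 falling by 1.95 ± 0.14 and by 0.91 ± 0.12.

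In both sko comparisons the tested genes around Fshr on chromosome 17 had smaller fold changes than Fshr. Fshr was chosen with its rise known, and ranked 56 of 14081 and 115 of 15923 genes by size of increase. Most genes would lie below it, so nothing is read from this. Of the 11 genes with some part within 1 Mb of either end of Fshr 8 were tested in growing oocytes, with 3 higher (Klraq1 0.91 ± 0.18, Ston1 0.81 ± 0.17, Gtf2a1l 0.71 ± 0.12) and 2 lower (Msh6 by 0.52 ± 0.12, Gm10184 by 1.60 ± 0.55). In the second experiment 5 of 9 tested were higher, Gm17287 furthest at 1.69 ± 0.35, and 2 lower, and with cPDS 5 of 10 were higher and 1 lower. Over all genes tested 28.5% were called higher and 25.2% lower in growing oocytes, and 19.9% and 17.9% in the second experiment. With cPDS these shares were 23.4% and 27.4%, and with Trim21 6.26% and 5.23%. Ston1, a protein of endocytic vesicles, was called higher in 4 comparisons, also with Trim21 (0.77 ± 0.14) where it was the only one of 9 tested to pass. Gm17287 had a larger fold change than Fshr with Trim21 (1.30 ± 0.72 against 1.11 ± 0.40), and neither passed. Lhcgr, the LH receptor gene next to Fshr, had a mean of 0 CPM in growing controls and 0.0350 in sko, too low for the test.

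**Figure D4:**
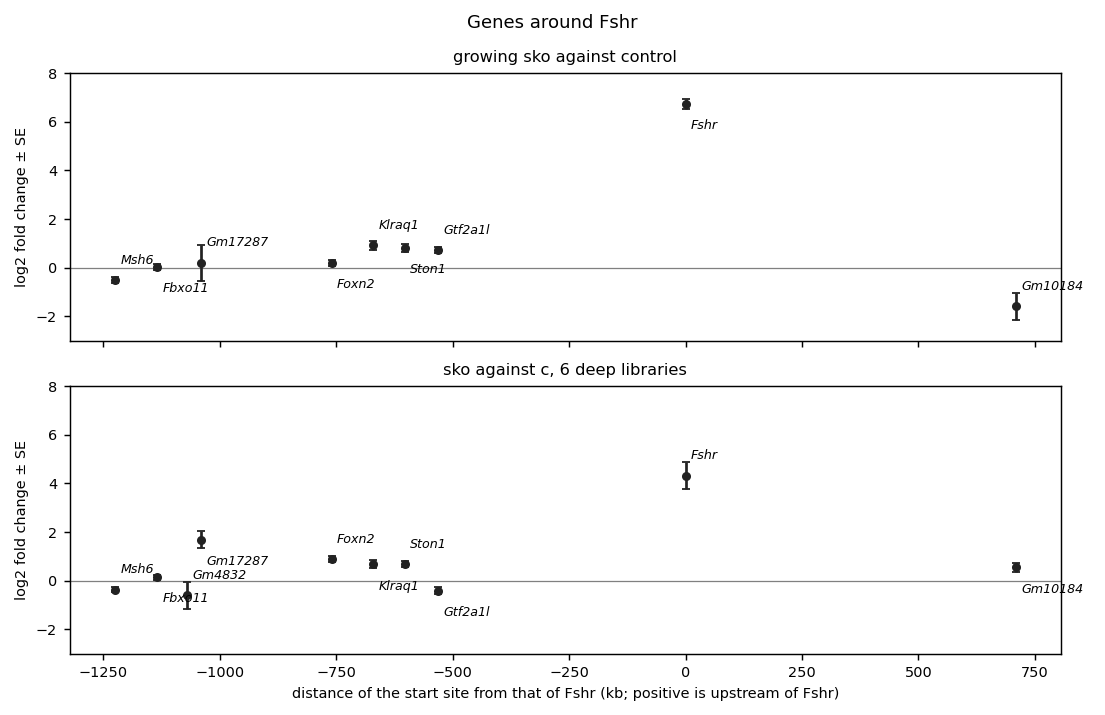
Log2 fold change ± SE of the tested genes around Fshr against the distance in kb of their start site from that of Fshr, positive upstream of Fshr, in growing oocytes and in the second experiment. Fshr lies at 6.73 and 4.32, and the others lie between -1.60 and 1.69.

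By level across the 18 libraries of the first table, the 10 genes most like Fshr (Pearson r of log2 CPM, among 9126 genes whose log2 CPM averaged 2 or more) were Gm9611 (0.961), Kera (0.961), Serpinb3a (0.953), Gm15070 (0.945), Gm12942 (0.942), Serpinb1a (0.939), Myadm (0.938), Gm6614 (0.932), Serinc5 (0.930) and Tpp2 (0.930). None of them is a member, and the 18 libraries share genotype groups, so these are descriptions. Serpinb1a, a protease inhibitor, had log2 fold changes of 5.41 ± 0.20 in growing sko and 5.31 ± 0.26 in the second experiment, and Kera, the cornea proteoglycan keratocan, 4.55 ± 0.17 and 3.54 ± 0.21. Of the members, Cyp19a1 had r = -0.01 with Fshr and ranked 3355, and Nr5a2 had r = 0.265 and ranked 1829. These values pool 3 experiments whose levels of Cyp19a1 differ, with reference means of 9.28, 34.7 and 83.4 CPM. Within the growing, second and GV experiments (6 libraries each) r with Fshr was 0.95, 0.72 and -0.40 for Cyp19a1 and 0.87, 0.91 and 0.51 for Nr5a2, as a description with no p-value. The other 6 were below the level minimum for this ranking.

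**Figure D5:**
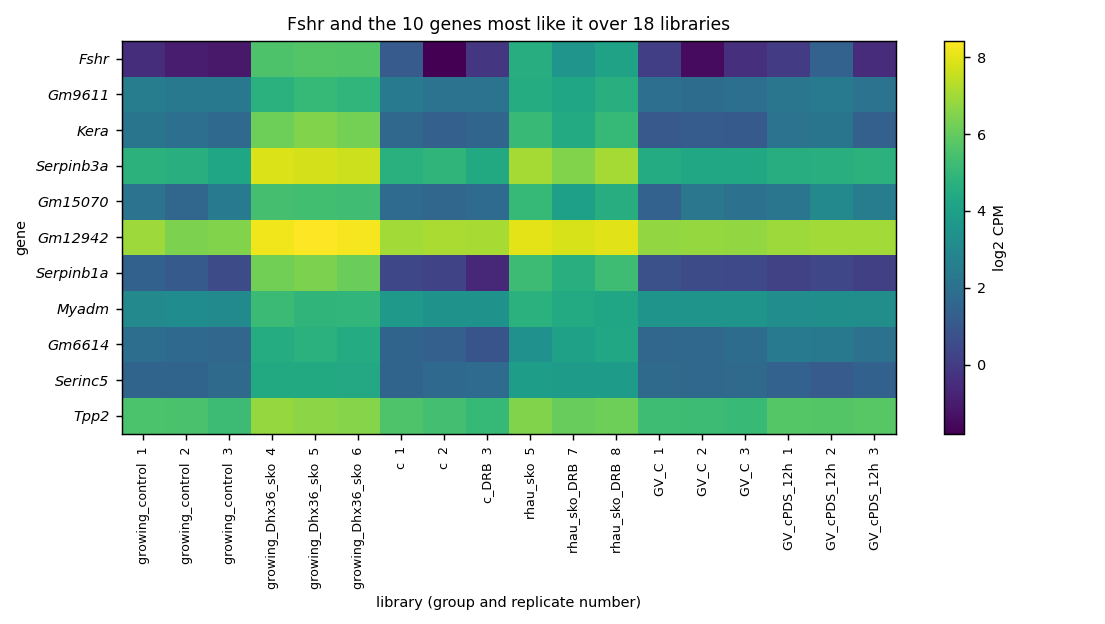
Log2 CPM of Fshr and the 10 genes with the highest correlation to it, in 18 libraries, coloured from dark (low) to yellow (high). All 11 are brightest in the growing sko and second-experiment sko columns, with Fshr dark in the c and control columns.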

How the data were processed

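Of the 55 samples in the series, 26 mouse oocyte libraries with RNA-seq gene counts were read and 24 analysed; the others were not used here. The counts were deposited by the authors as whole numbers per gene, in 1 table of 20 libraries and 1 of 6, and start from reads aligned to mm9, per the submitters' processing notes, which name fastp 0.21.0, HISAT2 2.1.0, STAR 2.5.2b, cutadapt 1.15 and featureCounts 2.0.1 without roles or order. Features of the second table were named by identical exons in the first, and 2844 further features by gene identifier from a reference list, so their exons can differ between the 2. Counts of 1 to 20 were odd in 43.8% to 47.0% of values in the growing libraries but in 10.8% to 31.7% in the others. A count in those others need not be an independent fragment. The Wilson intervals given below for the 2 shallow libraries cover counting error only. Each comparison was fitted with edgeR 4.0.16 (R 4.3.3; filterByExpr minimum count 10, TMM, quasi-likelihood test, Benjamini-Hochberg adjustment over all genes tested, threshold 0.05), checked on simulated counts. The 95% intervals of log2 fold changes use the SE of the fit, which reflects the spread between libraries, and the residual degrees of freedom. Comparisons, covariates and alternatives (DESeq2 1.42.0, library size, no filter, left-out libraries, the replicate block) are those of the closing section. Members, gene lists and motifs were chosen with earlier results of these data known. Named genes are the members, Dhx36, from each list up to 2 called genes with the largest change in each direction, the genes within 1 Mb of Fshr and the 10 most like it; others were chosen after their values were seen.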

Additional observations from a re-analysis of the deposited data

Results flagged for a closer look

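Of the 2 shallow libraries that the rule leaves out, rhau-sko replicate 6 held counts of 2 members above their level in the 3 deep c and c-DRB libraries. Fshr had 6 of 127927 counts, which is 46.9 CPM (95% Wilson interval 21.5 to 102), against at most 2.66 CPM in those 3. In the other shallow library, c-DRB replicate 4, Fshr had 0 of 129192 counts, for which 3 counts would be 23.2 CPM and the Wilson interval reaches 29.7 CPM, so the intervals of the 2 shallow libraries overlap. Nr5a2 had 10 counts in rhau-sko replicate 6, 78.2 CPM (42.5 to 144), against at most 23.4 CPM in the 3 deep libraries. It had 6 counts in c-DRB replicate 4, 46.4 CPM (21.3 to 101), so there too the intervals overlap.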

How the results depend on the processing

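Leaving out 1 library at a time gave these ranges: genes called in the sko comparison 3699 to 6066, in the Trim21 comparison 928 to 1936, log2 fold change of Fst -9.42 to 0.33 (sko), -0.60 to 9.15 (DRB) and -1.81 to 0.19 (cPDS), and of Inha with Trim21 -0.20 to 0.78. Over 26 member results and their alternatives, 239 kept direction and side of the threshold, 6 lost the threshold, 6 gained it and 7 reversed. These include the growing contrast and Fshr in the second experiment, which are descriptions: there the log2 fold change of Fshr was 6.58 to 6.96 and 3.89 to 5.15. Cyp19a1 and Nr5a2 kept direction and call in the second sko comparison, and Cyp19a1 with cPDS and Trim21, under every alternative run. Reversals: Fst in the sko comparison without rhau-sko replicate 5 (0.33), in the DRB comparison without the same library (-0.60), and with cPDS without GV-C replicate 2 (0.03) or cPDS replicate 1 (0.19); Inha with Trim21 without control replicate 1 (-0.09), control replicate 2 (-0.20) or Trim21 replicate 1 (-0.18). Genes called in the sko comparison were 6020, 3917 with all 8 libraries and 3699 without c-DRB replicate 3; in the DRB comparison 2, 403 by DESeq2, 492 without the low-count filter and 1 to 8 with a library left out; with Trim21 1630, and 928 to 1043 without Trim21 replicates 3 and 1. Members called with cPDS were 2, and 1 without GV-C replicate 3 or cPDS replicate 2. The causes were not tested. Deviations of same-numbered libraries from their group means had r of -0.06 to -0.03 with cPDS and -0.05 to 0.09 with Trim21. With 3 libraries per group this check cannot exclude that the numbers pair them. With the replicate block 2 and 1 members were called, as without it, and 7559 against 8191 genes with cPDS and 1762 against 1630 with Trim21. Amh, Foxl2 and Inhbb were mostly too low to test at this depth.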
